A study of Mus musculus with 2 samples.

Results

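The S100 genes on the array were 15, and 10 of them are described here: S100g, S100b, S100a1, S100a4, S100a6, S100a8, S100a9, S100a10, S100a11 and S100a14. A member was any probe for gene RNA whose deposited gene name was one of these, and each gene had 1 probe, printed as 1 spot, among the 41174 probes of the array. These genes were selected on their ratios in these same arrays, together with their common family name, so their ratios are given as a description, with no test. All 10 probes were well above background in the 4 RNAs measured, by the scanner software's mark.

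The RNA came from mouse prostaspheres (C57/Bl6J background), balls of cells that single prostate epithelial cells form in Matrigel, here with dihydrotestosterone in the medium. Sox9 is a transcription factor of prostate budding, and the study asked which transcripts depend on it. In the genotype comparison, wild-type cells given tamoxifen (TAM, 5 µM) were labeled with Cy5 and ER-Sox9flox/flox cells given TAM with Cy3. In the treatment comparison, ER-Sox9flox/flox cells given vehicle were labeled with Cy5 and ER-Sox9flox/flox cells given TAM with Cy3. In the ER-Sox9flox/flox line TAM switches on a Cre recombinase that cuts out the floxed Sox9 gene. Both Cy3 RNAs are therefore called Sox9-deleted here, although how complete the deletion was is not measured. The spheres had 6 days in Matrigel before treatment and 6 days of treatment. The wild-type cells are not described as carrying Cre, and cells with Cre and intact Sox9 were not analysed here. The deposited labels name urogenital sinus of embryos as the source, whereas the study's methods describe the sphere assay with adult prostate, and the number of animals behind each RNA is not given in the sources used here. There was 1 array for each comparison and no dye swap, so the dye and the Sox9 state of an RNA cannot be told apart. Log2 ratios below have the Sox9-expressing RNA on top and the Sox9-deleted RNA below the line, and each mean ± SD is over the 2 arrays (n = 2), which differ in the kind of Sox9-expressing cell.

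As a check of the labels, 2 of the 3 Sox9 probes were higher on both arrays in the RNA labeled as Sox9-expressing, at log2 ratios of 2.69 and 2.37 for one and 1.18 and 1.27 for the other. The remaining Sox9 probe was lower on both arrays, at -0.997 and -1.22. The probe with 2.69 and 2.37, the brightest of the 3, was well above background in all 4 RNAs, the Sox9-deleted ones included. Of 22731 probes tested, limma's test of the mean ratio called 2 (0.0088%) at an adjusted p under 0.05. Of 8 tested epithelial markers, 3 were at least 2-fold higher on both arrays (0.29% of all tested probes were). They were the basal genes Krt5 (mean log2 ratio 2.02 ± 0.15), Krt14 (1.96 ± 0.15) and Trp63 (1.60 ± 0.07). The Trp63 value is that of the brightest of 3 probes. Of these 3, 2 were higher by the mean, and the mean over all 3 was 0.68. The lowest epithelial marker was the luminal keratin Krt18 (-0.65 ± 0.52).

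S100 proteins are small calcium-binding proteins of vertebrates, most of which work as dimers and bind calcium through paired EF-hand loops. On binding calcium they expose a surface that holds a target protein, such as an annexin or a myosin, and some are released from cells and act on receptors of inflammation. Most S100a genes lie together on mouse chromosome 3, some within the epidermal differentiation complex, a cluster of genes for cornified epithelium. S100g, also called calbindin-D9k, lies on the X chromosome and is a cytosolic calcium buffer of intestine, uterus and kidney that vitamin D and, in uterus, estrogen induce.

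The stretches of RNA that the probes detect are shown first for the 2 probes that hold a coding EF-hand loop, since the loop binds calcium. Each probe is 60 bases long. In the deposited probe sequences of S100b and S100a8, a reading frame with the canonical EF-hand pattern was found, and the 36 bases of the loop are in capitals.
S100b: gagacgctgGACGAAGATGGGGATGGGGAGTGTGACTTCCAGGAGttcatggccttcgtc
S100a8: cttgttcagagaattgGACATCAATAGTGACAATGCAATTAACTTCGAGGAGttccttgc
No frame of the other 8 probes held a whole loop of this pattern. Of the probes for S100g and S100a9, the members at either end of the order of ratios, the first 30 bases identify what was measured.
S100g: ttcttcaaaaagctctcacaatgaacaagt
S100a9: ctgcccaaccaagtctaaagggaatggctt
In the array's annotation (mouse build mm9) the probe of S100g lies at chrX:159400032-159400091 on the minus strand, that of S100a9 at chr3:90496585-90496644 on the minus strand, that of S100a8 at chr3:90473778-90473837 on the plus strand and that of S100b at chr10:75722709-75722768 on the plus strand.

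S100g stood apart from the rest of the family. The genotype comparison gave it a log2 ratio of 2.53 and the treatment comparison one of 4.09, that is 5.78-fold and 17.1-fold higher in the Sox9-expressing RNA (mean 3.31 ± 1.11, a 9.94-fold difference). It was the highest of the 22731 tested probes in the treatment comparison and by the mean, and number 6 in the genotype comparison. It was also the 1 member of 10 that was at least 2-fold different on both arrays, a rule that 95 probes passed (0.418% of those tested), 66 of them higher (0.29%) and 29 lower (0.128%). That count rests on the ratios by which the members were chosen, and nothing is read from it.

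The values behind the S100g ratios came from both dyes. Spot signals here and below are before normalization, and the 2 dyes differ in brightness. In the genotype comparison S100a11 had 23298 units in Cy5 and 10109 in Cy3, at a log2 ratio of 0.12. Spot signals can therefore be compared within a dye and not between the dyes. The mean spot signal was 2155 intensity units in wild-type RNA and 133 in its TAM-treated ER-Sox9flox/flox partner, over local backgrounds of 57 and 15. In the treatment comparison the signal was 6159 with vehicle and 158 with TAM, over local backgrounds of 59 and 15. The signals of the 2 Sox9-deleted RNAs, both in Cy3, were thus close to each other. After normalization within and between arrays, the log2 signal of S100g in Sox9-deleted RNA was 8.08 and 8.06. In Sox9-expressing RNA it was 10.61 for wild-type cells and 12.15 for vehicle-treated cells, so the 2 arrays differed in the Cy5 RNA by 1.54 and in the Cy3 RNA by -0.02. With this scaling, the larger ratio of the treatment comparison therefore lay in the Sox9-expressing side. These 2 RNAs differ both in genotype and in TAM, and the difference between them has no replicate. With the arrays scaled to 1 spread, the ratio was larger in the genotype comparison (3.44) than in the treatment comparison (3.01).

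**Figure D1:**
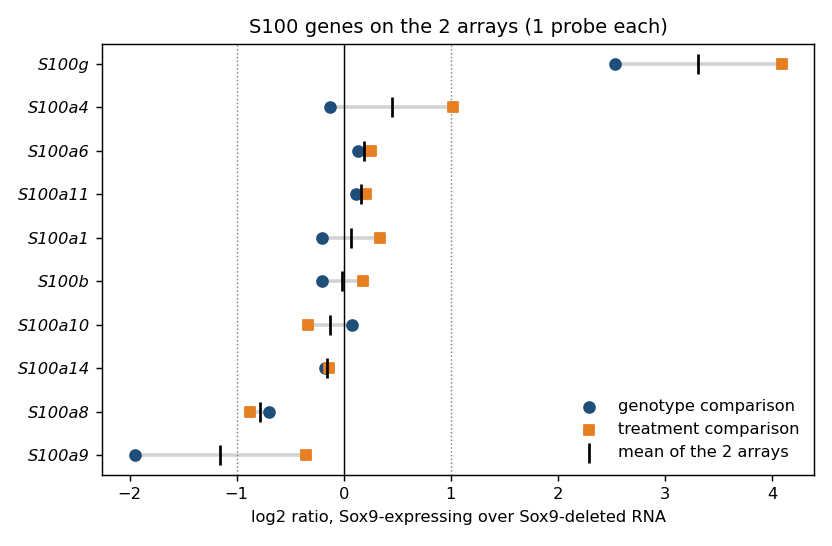
Log2 ratio, Sox9-expressing over deleted (horizontal axis), for the 10 S100 genes, ordered by their mean. Circles are the genotype comparison, squares the treatment comparison, and vertical ticks the mean of the 2 arrays. Dotted lines mark a 2-fold difference. S100g lies beyond the upper line on both arrays (2.53 and 4.09), S100a9 beyond the lower line on 1 (-1.95), and the bars of 4 genes cross 0.

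S100a8 and S100a9 form calprotectin, a dimer that binds zinc and manganese as well as calcium and is abundant in neutrophils and in stressed keratinocytes. On both arrays, both were lower where Sox9 was expressed. S100a8 had log2 ratios of -0.70 and -0.87 (mean -0.78 ± 0.12), which is 1.72-fold lower by the mean. S100a9 had log2 ratios of -1.95 and -0.36 (mean -1.15 ± 1.13), or 2.22-fold lower, so its size rested on the genotype comparison. In the genotype comparison S100a9 was number 24 from the bottom of the 22731 tested probes, and in the treatment comparison number 1309.

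The spot signals of S100a8 were low. They were 96.3 units in wild-type RNA and 118 in vehicle-treated RNA, over local Cy5 backgrounds of 60 and 56, and 107 and 115 units in the Sox9-deleted RNAs, over local Cy3 backgrounds of 16 and 18. The array's negative control spots had a median Cy5 signal of 63.2 and 58.7 on the 2 arrays and a median Cy3 signal of 23.7 and 23.5. The size of the S100a8 ratio differed between ways of processing the arrays. Its mean was -1.08 with an offset of 10 in place of 50, -1.18 without background subtraction, -1.27 in the authors' value table and -1.95 in the scanner software's own ratio, and in the last 3 of these it passed 2-fold on both arrays.

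S100a9 was brighter, at 168 and 554 units in Sox9-expressing RNA (Cy5) and 485 and 367 units in Sox9-deleted RNA (Cy3). These spot signals are not on 1 scale between the dyes. Its normalized log2 signal was 7.52 in wild-type cells and 8.78 in vehicle-treated cells, against 9.47 and 9.14 in the Sox9-deleted RNAs of the same arrays. Again the 2 Sox9-expressing RNAs differed by more (1.27) than the 2 Sox9-deleted ones (-0.33). With the ratios centred on the median of each array, in place of loess, the treatment comparison gave 0.13 for S100a9, so its direction there depended on the scaling.

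Because calprotectin is abundant in neutrophils, markers of these and other myeloid cells were read on the same arrays. Of 12 myeloid markers, 11 had a probe and 4 were tested. Of the markers not tested, Ptprc, Itgam, Csf3r, Mpo, Elane, Ngp and Adgre1 were not well above background in any of the 4 RNAs. The tested marker Lyz2 was well above background in all 4 RNAs. It had -0.90 in the genotype and -0.15 in the treatment comparison (-0.52 ± 0.53). The highest tested marker was Csf1r (-0.04 ± 0.10) and the lowest Cd14, a receptor subunit that epithelial cells can also express (-0.54 ± 0.70, with -1.04 in the genotype and -0.05 in the treatment comparison). Camp, the remaining tested marker, had -0.17 and -0.11. It was well above background in the Sox9-deleted RNAs (Cy3) but not in the Sox9-expressing ones (Cy5). Of the 4 tested, 3 were lower on both arrays (32.6% of all tested probes were), and 1 with median centring. The summed normalized log2 signal of the list was 11.9 and 12.7 in the Sox9-expressing RNAs and 12.7 and 12.8 in the Sox9-deleted RNAs.

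**Figure D2:**
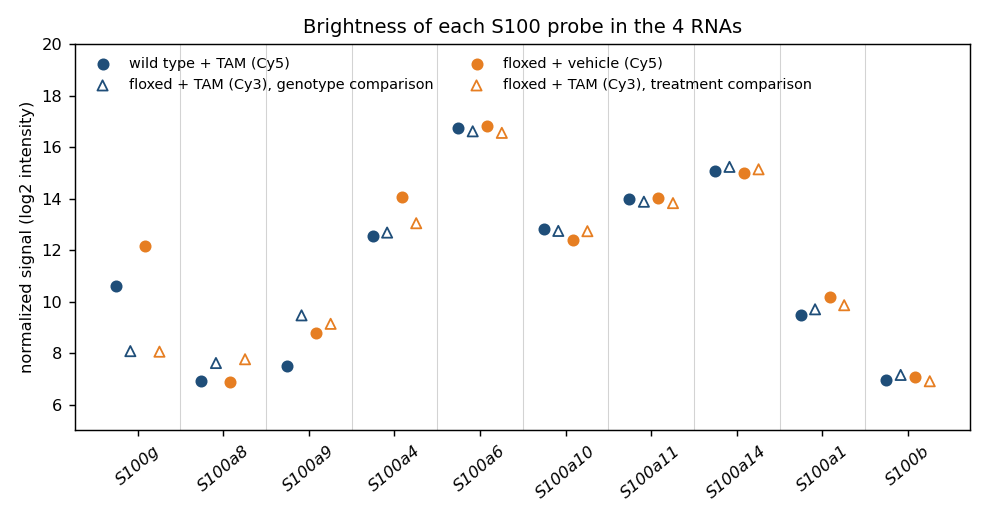
Normalized log2 intensity (vertical axis) of each S100 probe in the 4 RNAs. Filled circles are Cy5, Sox9-expressing RNA, open triangles Cy3, Sox9-deleted RNA, blue the genotype comparison and orange the treatment comparison. Heights may be compared within a gene and not between genes, since probes differ in how brightly they hybridize. For S100g both triangles lie near 8 and the circles at 10.61 and 12.15. For S100a9 both triangles lie above both circles.

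S100a4, also called fibroblast-specific protein 1, binds myosin IIA and is abundant in mesenchymal cells. The genotype comparison gave it a log2 ratio of -0.13 and the treatment comparison one of 1.02 (mean 0.45 ± 0.81), so it was 2-fold higher in vehicle-treated cells and close to even in wild-type cells. Its Cy5 spot signal was 8386 units in wild-type RNA and 25521 in vehicle-treated RNA. The Cy3 signals of the Sox9-deleted RNAs were 4475 and 5747, on the scale of the other dye. In normalized log2 signal the vehicle-treated RNA exceeded the wild-type RNA by 1.52, while the Sox9-deleted RNAs differed by 0.36. Among the members, 2 were at least 2-fold different in the genotype comparison, S100g and S100a9 (1.31% of all tested probes were), and 2 in the treatment comparison, S100g and S100a4 (1.68% of all tested probes).

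Fibroblast and muscle markers differed between the arrays in the same sense as S100a4. All 9 fibroblast markers were tested, and their median log2 ratio was -0.77 in the genotype and 0.60 in the treatment comparison. Of the 9, 8 were lower in the first and higher in the second. Opposite signs, in either order, occurred for 32.8% of all tested probes. Col1a2 was the highest of them by the mean (-0.84 and 1.07) and Dcn the lowest (-0.77 and -0.14). Of the 10 striated muscle markers 7 were tested, with medians of -1.06 and 1.41. Here Actc1 was the highest (-0.12 and 1.41) and Mb the lowest (-1.71 and 1.22). The summed normalized log2 signal of the fibroblast list was 15.0 in wild-type and 16.3 in vehicle-treated RNA, and 15.8 and 15.6 in the Sox9-deleted RNAs, and that of the muscle list was 11.3 and 13.01, and 11.9 and 11.6. Their part in the S100a4 difference was not tested. In RNA from whole spheres, fewer cells of a kind and less RNA in each cell cannot be told apart.

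S100a6 (calcyclin), S100a10 and S100a11 bind annexins, and S100a14 is an epithelial member. S100a6 was slightly higher on both arrays, at 0.13 and 0.25 (mean 0.19 ± 0.08), and so was S100a11, at 0.12 and 0.21 (mean 0.16 ± 0.06). S100a14 was slightly lower on both, at -0.17 and -0.13 (mean -0.15 ± 0.03). S100a10, the light chain that pairs with annexin A2 and binds tissue plasminogen activator, had 0.08 and -0.34 (mean -0.13 ± 0.29). These 4 differences were all under 1.3-fold on each array, and the sign of 3 of them depended on the scaling. With median centring the mean of S100a14 was 0.39 and that of S100a10 was 0.28, and by the scanner software's ratio that of S100a6 was -0.27. Median centring also moved the median of all tested probes to 0.18 (0.38 in the treatment comparison), against 0.01 with loess.

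S100a1, a regulator of calcium release in muscle, and S100b, a glial and cartilage protein, had opposite signs on the 2 arrays and means near 0. S100a1 had -0.20 and 0.34 (mean 0.07 ± 0.38) and S100b -0.20 and 0.18 (mean -0.01 ± 0.27). The S100b signals were near background, at 104 and 120 units in Cy5 and 62.4 and 50.02 units in Cy3, where the background offset shrinks ratios. S100b marks chondrocytes and glia, cells whose development Sox9 directs. Of the 13 chondrocyte markers 6 were tested, with a median mean log2 ratio of 0.02, from Acan (-0.15 ± 0.05) to Col11a1 (0.77 ± 2.07). Of 8 glial markers 4 were tested, with a median of 0.13, from Sox10 (-0.08 ± 0.04) to Ngfr (0.28 ± 0.30). Acan and Sox10 were well above background in only 2 of the 4 RNAs. The summed normalized log2 signal of the chondrocyte list was 10.8 and 12.2 in the Sox9-expressing RNAs and 10.9 in both Sox9-deleted RNAs, and that of the glial list was 11.5 and 11.3, and 11.2 and 11.1. Single bright genes weigh heavily in these sums. Col11a1 alone (-0.69 and 2.23) stood at 8.85 and 11.77, and at 9.54 and 9.53. Mbp alone, by the brightest of 3 probes, stood at 10.92 and 10.73, and at 10.70 and 10.59.

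Over the family, 3 members were higher on both arrays (34.6% of all tested probes were), 3 were lower on both (32.6%) and 4 were opposite on the 2 arrays (32.8%). The split of directions was thus near that of the whole array. The median mean log2 ratio of the 10 members was 0.03, against 0.01 over all tested probes.

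**Figure D3:**
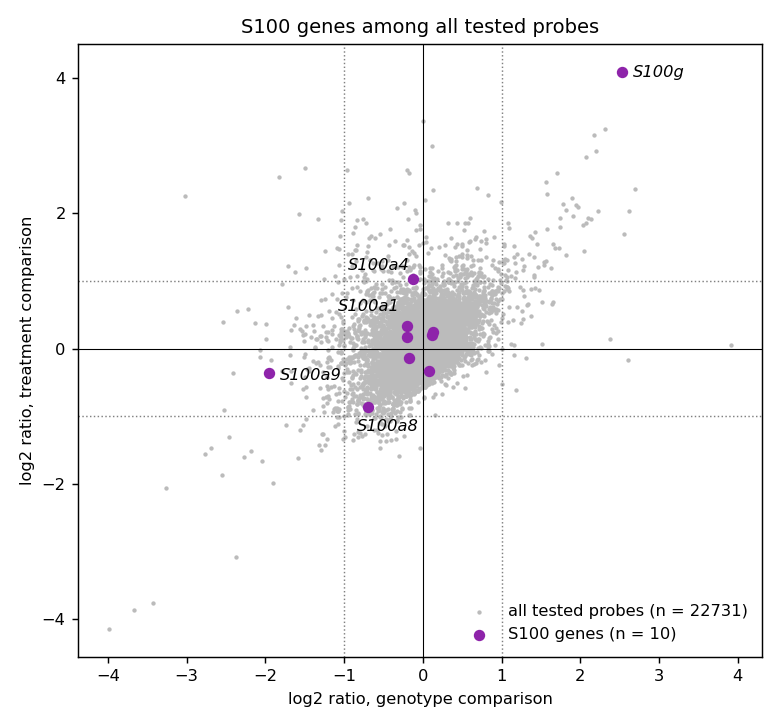
Log2 ratio of the genotype comparison (horizontal axis) against that of the treatment comparison (vertical axis) for the 22731 tested probes (grey) and the 10 S100 genes (purple). Dotted lines mark a 2-fold difference on each array. S100g lies at 2.53 and 4.09, above every other probe on the vertical axis. S100a9 lies at the left edge of the main cloud and S100a4 at its upper edge, and the unlabeled members lie within 0.4 of 0 on both axes.

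The 8 members of chromosome 3 lay between chr3:90315133-90315192 (S100a1) and chr3:93368437-93368496 (S100a10), over 3053 kb. Their log2 ratios ranged in the genotype comparison from -1.95 to 0.13 and in the treatment comparison from -0.87 to 1.02, with medians of -0.15 and 0.04. S100g exceeded the highest of them by 2.40 and 3.07, and their median by 2.68 and 4.06 (3.35 by the mean). Neighbors within the cluster could differ on 1 array and lie close on the other. The probes of S100a4 and S100a6 were 8.32 kb apart and had 1.02 and 0.25 in the treatment comparison but -0.13 and 0.13 in the genotype comparison. Those of S100a8 and S100a9 were 22.8 kb apart and had -0.70 and -1.95 in the genotype comparison and -0.87 and -0.36 in the treatment comparison. S100a1 and S100a14, 17.3 kb apart, had -0.20 and -0.17 in the genotype comparison and 0.34 and -0.13 in the treatment comparison. S100a11 and S100a10, 38.4 kb apart, had 0.12 and 0.08, and 0.21 and -0.34.

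The same stretch held 52 other named genes or transcripts with a probe, of which 33 were tested. Among these, 3 were higher on both arrays (34.6% of all tested probes were) and 20 were lower on both (32.6%). Their median mean log2 ratio was -0.22, and 16 were lower on both with median centring. Those higher include a transcript probe at chr3:93330142-93330203 (0.08 and 0.15), beside the S100a11 probe at chr3:93330017-93330076, whose RNA it may share. Several of the 33, such as the Sprr2 and Lce1 genes, are near-copies of each other whose probes may share RNA. The highest was Lor, for loricrin of the cornified envelope, at 1.41 and 1.09 (mean 1.25 ± 0.22, 2.37-fold), and the lowest was Ivl, for involucrin of the same structure, at -2.52 and -0.91 (mean -1.72 ± 1.14, 3.29-fold lower). Cornified envelope genes of the cluster therefore lay on both sides of 0, and so did the S100a members.

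**Figure D4:**
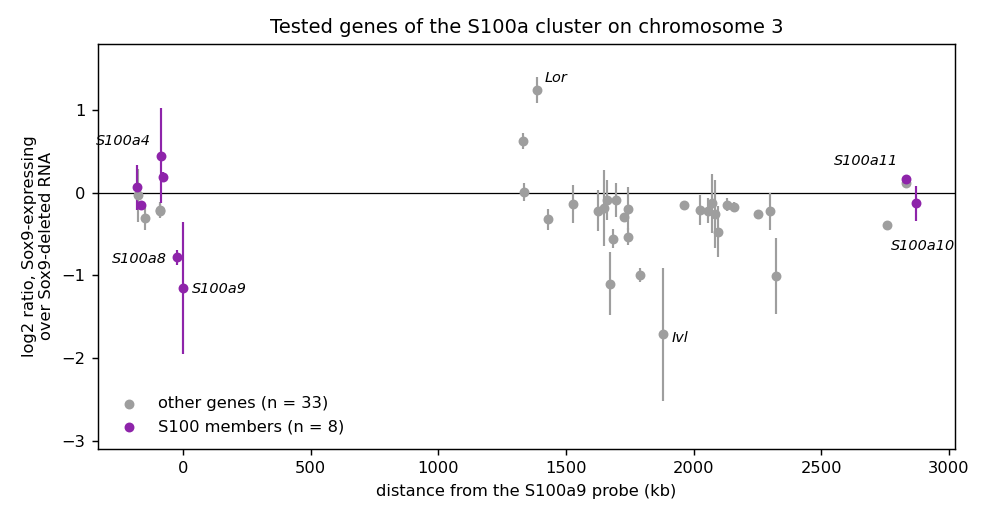
Mean log2 ratio (points) with the values of the 2 arrays (ends of the bars) against the distance in kb from the S100a9 probe, for the 33 tested genes (grey) and the 8 S100 members (purple) of the chromosome 3 stretch. S100a8 and S100a9 lie below 0 at both ends of their bars, the other 6 members lie near 0 or cross it, and Lor (1.25) and Ivl (-1.72) mark the range of the cornified envelope genes.

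The cluster's genes of the epidermal differentiation complex were also read as a list. Of 22 listed genes 19 had a probe and 9 were tested. limma called 0 of the 9 at an adjusted p under 0.05, with 5 at an unadjusted p under 0.05 (17.6% of all tested probes). The methods' t-test, unadjusted, gave 0 of the 9 and 1930 of the 22731 tested probes. Lor was at least 2-fold higher on both arrays (limma adjusted p = 0.0883). By sign, 4 of the 9 were lower on both (32.6% of all tested probes were). The median mean log2 ratio was -0.19, but 0.01 with median centring and -0.53 by the scanner software's ratio.

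Of the remaining S100 genes, S100a16 had a mean log2 ratio of -0.31 ± 0.20 and S100a13, which helps in the release of growth factors without a signal peptide, one of -0.03 ± 0.45, and they were the lowest and the highest of the 3 tested. S100a5 and S100a7a were not well above background in any RNA. limma called 0 of the 3, with 1 at an unadjusted p under 0.05 (all tested probes: 17.6%) and 0 by the methods' t-test, unadjusted. With median centring S100a16 was at 0.12, so its direction also depended on the scaling.

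The partners through which S100 proteins act were read from a list of 19 annexins, receptors and other binding proteins, of which 15 were tested. limma called 0 of them, with 4 at an unadjusted p under 0.05 (all tested probes: 17.6%). The methods' t-test, unadjusted, gave 1 of the 15 and 1930 of the 22731 tested probes. Anxa2, the partner of S100a10, had opposite signs on the 2 arrays (0.14 and -0.09, mean 0.03 ± 0.17). The mean over its 2 probes was -0.07. Anxa1, the partner of S100a11, had -0.13 ± 0.17, and the S100a8 and S100a9 receptor Tlr4 had -0.07 ± 0.11. Anxa6 was the highest (0.58 ± 0.25, limma adjusted p = 0.171) and Plat, for the tissue plasminogen activator that S100a10 binds, the lowest (-1.06 ± 0.29, limma adjusted p = 0.108). Plat had 3 probes with a mean of -0.83, and 2 of them were lower. No gene of the list was at least 2-fold different on both arrays. By sign, 3 were higher (34.6% of all tested probes were) and 8 lower on both (32.6%). The median was -0.07. With median centring these counts were 7 and 3 and the median 0.28.

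The vitamin D list held the receptor, the enzymes and the calcium transporters that are known to act with calbindin-D9k in intestine. Of 12 genes 11 had a probe and 7 were tested. The highest was Vdr, the vitamin D receptor, which was at least 2-fold higher on both arrays, at 2.04 and 1.44 (mean 1.74 ± 0.43, 3.34-fold, limma adjusted p = 0.0925), with means from 1.74 to 2.08 over the ways of processing the arrays. The calcium entry channel Trpv6 had 0.08 and 0.18 (0.13 ± 0.07), and Pthlh was the lowest (-0.06 ± 0.18). The vitamin D target Cyp24a1, the other calbindin Calb1 and Trpv5 were not well above background in any RNA. limma called 0 of the 7, with 2 at an unadjusted p under 0.05 (all tested probes: 17.6%). The methods' t-test, unadjusted, gave 1 of the 7 and 1930 of the 22731 tested probes. By sign, 5 were higher (34.6% of all tested probes were) and 1 lower on both arrays (32.6%), with a median of 0.13.

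TAM acts on estrogen receptors, and S100g is a known estrogen target in uterus, so estrogen-responsive genes were listed too. In the genotype comparison both RNAs had TAM, whereas in the treatment comparison 1 had TAM and 1 did not. Of 8 listed genes 5 were tested, and their median log2 ratio was 0.04 in the genotype and 0.76 in the treatment comparison. By sign, 2 were higher on both arrays (34.6% of all tested probes were), 0 lower on both (32.6%) and 3 opposite (32.8%). The median of the means was 0.30, and -0.02 with the arrays scaled to 1 spread. Ltf (-0.86 and 1.46) and Igf1 (-0.61 and 0.89) had the largest ratios of the treatment comparison and went opposite ways on the 2 arrays. C3 was the highest by the mean (0.26 and 0.76, mean 0.51 ± 0.36, limma adjusted p = 0.232) and Pgr the lowest (0.04 and -0.13). Pgr had 2 probes with a mean of -0.003, and only the brightest of them was lower. The estrogen receptor Esr1 had 0.11 and 0.65. limma called 0 of the 5, with 1 at an unadjusted p under 0.05 (all tested probes: 17.6%) and 0 by the methods' t-test, unadjusted. S100g was 5.78-fold higher in the comparison in which both RNAs had TAM. The part of TAM in the 17.1-fold difference of the other was not tested.

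Other EF-hand proteins, such as calmodulins and reticulocalbins, had a median ratio near 0. Of 17 listed genes 13 were tested, with a median mean log2 ratio of -0.03. By sign, 3 were higher (34.6% of all tested probes were) and 4 lower on both arrays (32.6%). Calml3, an epithelial calmodulin-like protein, was the highest (-0.14 and 1.44, mean 0.65 ± 1.11) and Calm3 the lowest (-0.67 and -0.10, mean -0.39 ± 0.40). Calm3 had 3 probes with a mean of -0.07, and only the brightest of them was lower. Calm4 had 0.11 and 1.00. limma called 0 of the 13, with 1 at an unadjusted p under 0.05 (all tested probes: 17.6%) and 0 by the methods' t-test, unadjusted. With median centring the split was 4 higher and 0 lower and the median 0.35.

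The genes whose pair of ratios lay closest to that of S100g, by Euclidean distance over the 2 arrays, were themselves far away, since few probes reach such ratios. They were Dapl1 (2.31 and 3.25, distance 0.87), the cysteine protease inhibitor Stfa1 (2.18 and 3.16, distance 0.998), the matrix protein gene Tgfbi (2.20 and 2.92, distance 1.22), BC100530 (1.701 and 2.60, distance 1.71) and Sox9 itself (2.69 and 2.37, distance 1.73). Stfa1 and BC100530 belong to a family of near-copies, so their probes may share RNA. The closest to S100a8 were Il1a, for an alarm cytokine of epithelia (-0.68 and -0.87, distance 0.0131), Penk1 (-0.71 and -0.89, distance 0.0237), Stambpl1 (-0.69 and -0.84, distance 0.0276), Jund (-0.67 and -0.84, distance 0.045) and Wnt7b (-0.64 and -0.90, distance 0.0597). With 2 arrays a likeness of this kind is a description of position only.

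The upstream sequence of S100g is shown because it was the member with the largest ratio, and because Sox9 and the vitamin D receptor bind DNA. RefSeq (GRCm38.p6) gives it as chrX:162964600-162964849 on the minus strand, 250 bases up to the start of the gene, written 5′ to 3′. Capitals mark ACAAAG and ACAATG, core letters of Sox sites, and AGGTCA and GGTTCA, letters that are repeated in vitamin D receptor sites, each searched on both strands and none overlapping another here.
S100g: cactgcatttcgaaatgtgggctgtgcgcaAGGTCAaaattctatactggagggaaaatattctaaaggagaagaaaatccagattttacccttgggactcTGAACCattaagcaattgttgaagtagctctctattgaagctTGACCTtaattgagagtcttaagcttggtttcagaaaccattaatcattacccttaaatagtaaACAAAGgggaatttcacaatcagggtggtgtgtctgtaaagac
ACAAAG began 43 bases before the start, AGGTCA 220 bases before it and, on the other strand, TGACCT 107 and TGAACC 149 bases before it. Of 32851 upstream windows of the same length in the table, 16.46% held ACAAAG, 10.69% ACAATG, 14.02% AGGTCA and 8.85% GGTTCA, on either strand. Of the 8 members with a window in the table, 1 (S100g) held ACAAAG, 0 held ACAATG, 3 held AGGTCA (S100g, S100a4 and S100a11) and 2 held GGTTCA (S100g and S100a6). The windows of S100a8 and S100a9 held none of these letters. A match is a description of the letters in this window and no evidence of binding.

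The order of the members by mean ratio was compared over the ways of processing the arrays. S100g was the highest member in each of them, with means from 3.23 to 3.90, and S100a8 and S100a9 were the lowest. With the 2 arrays scaled to 1 spread, S100g had 3.44 in the genotype and 3.01 in the treatment comparison, so the order of its 2 arrays depended on the scaling. The next member below S100g, S100a4, ranged from 0.29 to 0.89, and neighbors in the order had overlapping values on the 2 arrays, except S100g over S100a4 and S100a14 over S100a8.

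**Figure D5:**
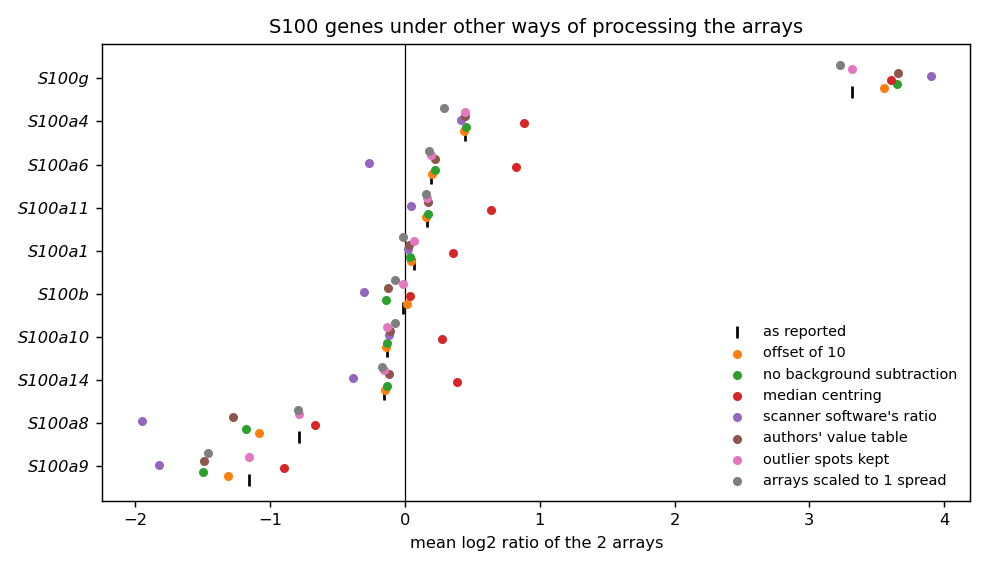
Mean log2 ratio of the 2 arrays (horizontal axis) of each S100 gene under 8 ways of processing the arrays, one color each, with black ticks for the values given in the text. S100g stays between 3.23 and 3.90, S100a8 spreads from -1.95 to -0.67, and median centring (red) moves the bright members S100a4, S100a6, S100a11 and S100a14 to the right.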

How the data were processed

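Two-color hybridizations of 4 prostasphere RNAs to 2 Agilent whole mouse arrays of 1 slide were read from the deposited files. The authors' scanner software, Agilent Feature Extraction 10.5.1.1, gave spot means and local background medians as intensity in each dye, and the deposited log10 ratio of its processed signals. The authors also deposited a table of log2 ratios, whose unit was inferred from its slope on the log10 ratios (3.12 and 3.14 per array). The steps behind it are not given in the sources used here, apart from the name limma in the submitters' processing notes. Array positions are those of mm9.

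Intensities were corrected with normexp (offset 50) and loess within arrays in limma 3.58.1 (R 4.3.3). Control spots were removed, as were the 126 and 130 spots with an outlier mark, and replicate spots were averaged. Signals per RNA are after Aquantile between arrays. Probes well above background in Cy5 or in Cy3 on both arrays were tested (22731 of 41174). Mean log2 ratios were tested against 0 with lmFit and eBayes (2-sided), and p-values were adjusted by Benjamini-Hochberg across all tested probes. With 1 residual degree of freedom, the p-values measure only the spread between these arrays. A 2-fold rule (log2 ratio of at least 1 on both arrays, same direction) was applied without a test. The methods' t-test is the paired 2-tailed test that the study names. The brightest probe stood for its gene. Saturated spots numbered 0, and 53.9% to 56.2% of probes were well above background per RNA. Between replicate spots of a probe on an array the median SD of the log2 ratio was 0.0362 and 0.0429. Precision is limited by the number of arrays. The offset shrinks the ratios of dim probes.

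Named genes were the members, list genes at least 2-fold on both arrays or else the highest and lowest of a list, known partners, and the 5 genes nearest to S100g and to S100a8, leaving out transcripts named only by an accession or clone. Esr1, Ltf, Igf1, Trpv6, Lyz2, Camp, Mbp, Calm4 and the markers at background were named after their values were seen. The members and lists were chosen with earlier results of these data known. The code was tested on simulated data. Figures used Python 3.11.15 and matplotlib 3.10.9.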

Additional observations from a re-analysis of the deposited data

Results flagged for a closer look

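For 4 members the 2 comparisons, each with 1 array, had opposite signs. The log2 ratio of the treatment comparison minus that of the genotype comparison was 1.15 for S100a4, 0.54 for S100a1, 0.376 for S100b and -0.413 for S100a10. With 1 array for each comparison these differences were not tested. Opposite signs occurred for 32.8% of all tested probes.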

How the results depend on the processing

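Of 100 values of the 10 members under other settings, 87 moved by no more than the SD between the 2 arrays, and 10 values of 6 members took another sign. The 87 include values that could not move further. With 2 arrays, a single-array value always lies within that SD of the mean. Keeping outlier spots or averaging probes left every member as it was. The count of 87 is therefore no measure of stability. S100g ranged from 2.53 to 4.09 over single arrays, and S100g minus the median of the chromosome 3 members from 2.68 to 4.06. The sign turned with median centring for S100a14 (0.39), S100a10 (0.28) and S100b (0.04), with the scanner software's ratio for S100a6 (-0.27), with an offset of 10 for S100b (0.02), with arrays scaled to 1 spread for S100a1 (-0.02), and on single arrays for S100b (0.18), S100a1 (-0.20), S100a4 (-0.13) and S100a10 (0.08). Beyond the SD were also, with median centring, S100a6 (0.83) and S100a11 (0.64), with the scanner software's ratio S100b (-0.30), S100a8 (-1.95), S100a11 (0.0451) and S100a14 (-0.38), by the authors' values S100a8 (-1.27) and S100a14 (-0.12), with an offset of 10 S100a8 (-1.08), and without background subtraction S100a8 (-1.18). The causes were not tested.

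Across all tested probes, limma called 2 (0 of them higher), against 0 with an offset of 10, without background subtraction, with the scanner software's ratio, with arrays scaled to 1 spread and by the methods' t-test, 522 with median centring, 68 in the authors' table and 21 with no filter on dim probes. At an unadjusted p under 0.05, limma gave 3990 probes and the methods' t-test 1930. Probes at least 2-fold on both arrays numbered 95 (66 higher, 29 lower), against 148 without background subtraction, 600 with the scanner software's ratio (290 higher), 147 in the authors' table, 112 higher and 10 lower with median centring, and 298 to 382 on single arrays. Genes of the 6 lists past this rule numbered 2, against 4 with the scanner software's ratio, 1 with arrays scaled to 1 spread and 5 on either array alone. limma could not be fitted to 1 array. Each member has 1 probe, so averaging probes leaves its value as it is. No paired analysis was possible because each comparison has 1 array, so no replicate number is shared beyond the pairing of the dyes that each ratio already holds.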
